A study of Mus musculus with 4 samples.

Results

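Collagen chains were followed in bulk RNA-seq of mouse pancreas samples titled ducts, with and without an engineered loss of the kinases LATS1 and LATS2. The chains were chosen by name, as every gene model written Col, a number, the letter a and a number, and 44 of the 52535 models in each library met this rule. The 2 wild-type libraries (WT 1 and WT 2) come from C57BL/6 mice. The 2 libraries labelled Lats1/2 KO (KO 1 and KO 2) come from C57BL/6 mice of the genotype Lats1fl/fl; Lats2fl/fl; Sox9-CreER, in which the Cre recombinase is made in cells that use the Sox9 gene and acts after tamoxifen. The labels state neither age, nor time after induction, nor how the cells were isolated. They also do not say that replicates are separate mice, so p-values measure only the spread between these libraries, which may be technical. Values are given in the order WT 1, WT 2, KO 1, KO 2 throughout.

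Collagens are secreted or membrane proteins built from chains that wind around each other over stretches in which glycine recurs at a fixed step. Fibrillar collagens form the rope-like fibres of connective tissue, and basement membrane collagens form the sheet on which epithelia rest. FACIT chains (fibril-associated collagens with interrupted helices) decorate the fibres, beaded filament chains form a fine net around cells, and transmembrane chains sit in the cell surface. Multiplexins, the anchoring fibril chain and the short-chain network formers were grouped apart, as were 2 chains of other structure. In the pancreas most fibrillar collagen comes from fibroblasts and stellate cells, while duct and endothelial cells help to make basement membrane.

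The glycine repeat was read from the coding sequences of GENCODE M21 transcripts, as runs of glycine codons (GG followed by any base), each separated by 2 other codons. The first 63 bases of the longest uninterrupted run are shown for 1 chain of each of 4 classes, with the glycine codons in capitals, to show the repeat that the classes share.
Col1a1, fibrillar, chromosome 11: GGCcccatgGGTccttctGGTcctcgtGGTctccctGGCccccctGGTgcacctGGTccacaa
Col4a1, basement membrane, chromosome 8: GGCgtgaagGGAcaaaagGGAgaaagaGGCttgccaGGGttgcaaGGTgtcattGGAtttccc
Col6a1, beaded filament, chromosome 10: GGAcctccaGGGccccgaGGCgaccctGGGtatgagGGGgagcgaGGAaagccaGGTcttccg
Col10a1, short-chain network, chromosome 10: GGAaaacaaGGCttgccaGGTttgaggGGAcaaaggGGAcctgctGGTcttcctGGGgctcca

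The run held 338 glycine triplets in Col1a1, 40 in Col4a1, 87 in Col6a1 and 61 in Col10a1. Col4a1 was interrupted often, with 17 separate runs of at least 3 triplets, against 2 in Col1a1 and 2 in Col6a1.

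The libraries held 3566387 to 5925601 counts. Lats1 stood at 50.8 and 65.6 CPM (counts per 1000000 of the TMM-scaled library) in wild type and at 70.0 and 79.2 CPM in the knockout-labelled libraries, and Lats2 at 114 and 102 against 163 and 121 CPM. Both targeted genes were thus at least as abundant with the knockout label as without it. Counts over whole gene models include transcripts that lack only floxed exons, so they do not check the deletion. All 8 duct markers examined were present in every library, and the libraries also held RNA of other cells. The 10 fibroblast and stellate cell markers summed to 2081 and 1870 CPM in wild type and to 3012 and 2435 CPM in KO 1 and KO 2. The higher sum rested on Postn, at 286, 173, 1347 and 1353 CPM, while Des stood at 725, 686, 271 and 118 CPM. Of these 10 markers, 4 were called higher and 3 lower, against 22.0% and 20.2% of all tested genes. The summed levels of 8 smooth muscle and pericyte markers were 4147, 3323, 1576 and 1063 CPM, in the same order. Those of 7 endothelial markers were 1261, 1204, 635 and 569.9 CPM. Summed duct markers stood at 974, 1289, 7592 and 7932 CPM, acinar markers at 42465, 76303, 151 and 3337 CPM, macrophage markers at 192, 156, 1790 and 1282 CPM and lymphocyte markers at 981, 943, 52.9 and 28.5 CPM. Summed mesothelial markers stood at 16.8, 11.2, 319 and 282 CPM, with 2 of 5 called higher (22.0% of all tested genes were) and Upk1b at 0 counts in WT 2. The part of these shifts in the collagen values was not tested.

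Collagen RNA made up a larger share of the libraries labelled knockout. The 44 chains together took 0.515% of all counts in WT 1 (95% Wilson interval 0.508 to 0.523, counting error only) and 0.442% in WT 2 (0.436 to 0.448). They took 2.77% in KO 1 (2.76 to 2.79) and 2.10% in KO 2 (2.09 to 2.12), so the groups did not overlap and the mean share was 5.09 times as large. With 2 libraries against 2, an exact two-sided permutation test cannot go below p = 0.333. The genes of type I and III collagen, Col1a1, Col1a2 and Col3a1, supplied 45.7% and 42.7% of the collagen counts in WT 1 and WT 2 and 48.8% and 43.0% in KO 1 and KO 2. Fibrillar chains held 52.0%, 49.5%, 59.0% and 54.0% of the collagen counts. Beaded filament chains held 17.7%, 19.0%, 7.88% and 8.54%, higher in both wild-type libraries than in both others. Their share of all library counts went the other way, at 0.0911%, 0.0840%, 0.219% and 0.180%.

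**Figure D1:**
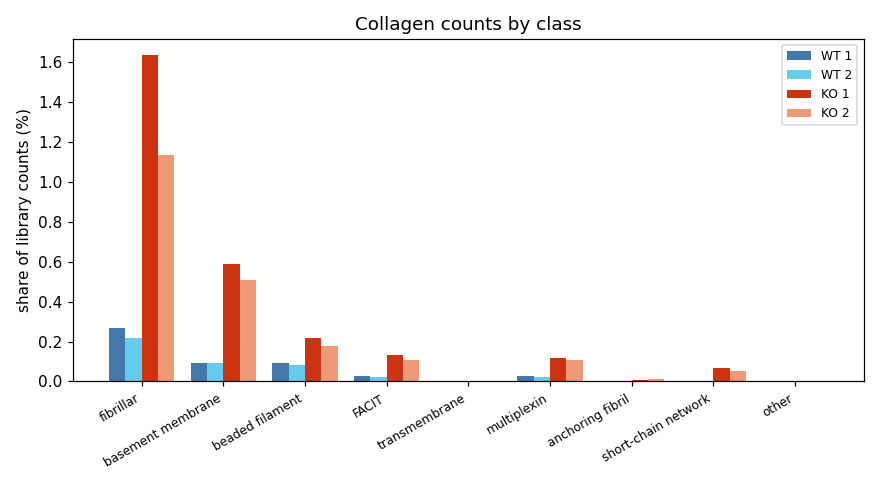
Share of library counts taken by each collagen class, in percent, in each of the 4 libraries (bars, 1 per library). The fibrillar bars reach 1.64% in KO 1 and 1.14% in KO 2 and dwarf the transmembrane and other classes, whose bars reach at most 0.00278%.

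Of the 44 chains, 36 had enough counts to be tested with edgeR and 8 did not. Among the 36 tested, 23 were called higher in the libraries labelled knockout and 6 lower at an adjusted p under 0.05, and 7 did not pass. Over all 13990 tested genes, 22.0% were called higher and 20.2% lower (3077 and 2832 genes; 2339 and 3594 with upper quartile scaling). The tested chains had a median log2 change of 1.86, beside -0.01 for all tested genes. All 23 rises and all 6 falls were larger than 2-fold, and 16 of the rises were larger than 4-fold. Col10a1, Col6a4, Col9a2 and Col17a1 passed the filter on low counts only through their higher group. That these chains differed was fixed in advance. Both libraries of a group lay beyond both of the other for 26 tested chains with the knockout label higher and for 6 with it lower, against 37.4% and 36.8% of all tested genes. In 19 of the 23 chains that rose, KO 1 was above KO 2.

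**Figure D2:**
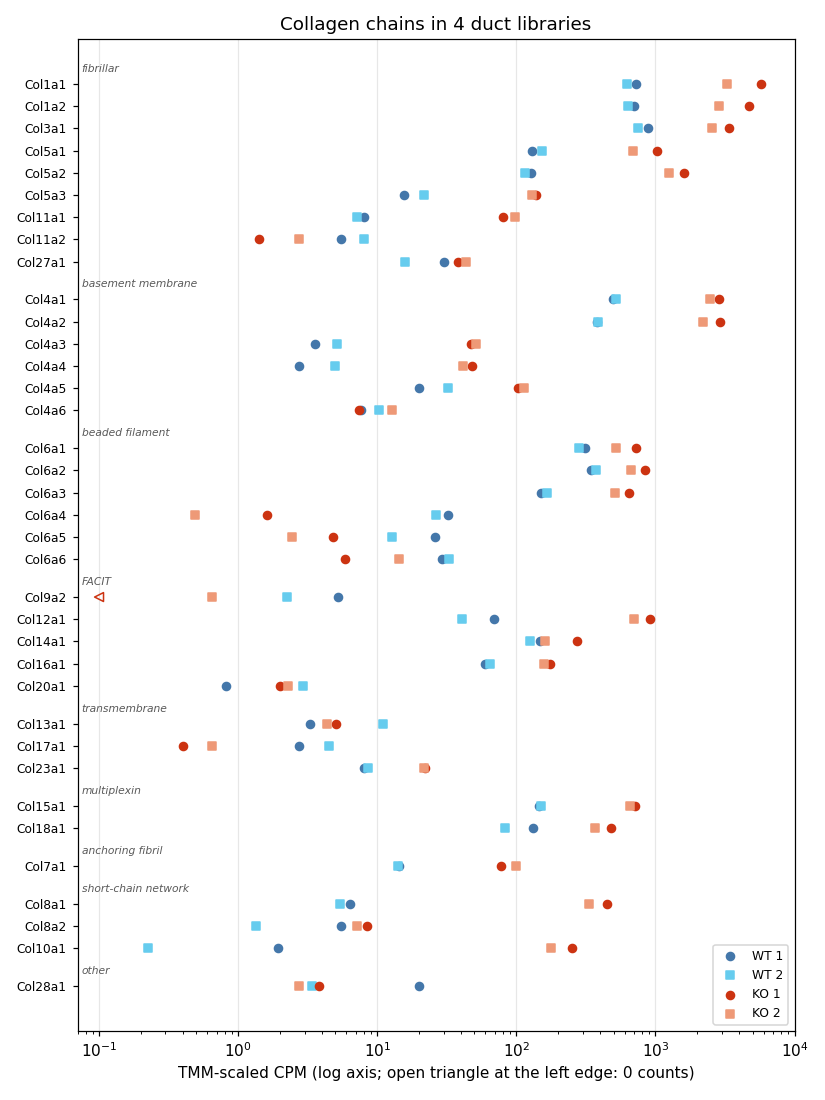
Level of the 36 tested collagen chains in each library, as TMM-scaled CPM on a log axis, ordered by class. Points of WT 1 and WT 2 (blue) and KO 1 and KO 2 (red) separate widely for Col10a1, Col8a1 and Col12a1 and meet for Col4a6 and Col13a1.

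Fibrillar chains of connective tissue rose together. Col1a1 (mm10, chromosome 11, 94936224 to 94953042), the main chain of type I collagen, stood at 725 and 623 CPM in wild type and at 5784 and 3263 CPM in the knockout-labelled libraries. Both libraries labelled knockout were well above both wild-type libraries, and KO 1 was far above KO 2. It rose 6.71-fold, from 674 ± 71.7 to 4524 ± 1782 CPM (SD, n = 2; log2 change 2.75 ± 0.30 SE, edgeR adjusted p = 0.000236). Col1a2 (chromosome 6, 4504814 to 4541544), its partner chain, stood at 699, 632, 4701 and 2863 CPM. Col1a2 rose 5.68-fold (edgeR adjusted p = 0.000212). Col3a1 (chromosome 1, 45311538 to 45349706), which makes the fine reticular fibres of soft organs, stood at 884 and 752 CPM in wild type and at 3359 and 2553 CPM in the libraries labelled knockout. Its rise was 3.61-fold (log2 change 1.85 ± 0.23 SE, edgeR adjusted p = 0.000376).

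The type V chains, which nucleate type I fibrils and limit their diameter, rose as well. Col5a2 (chromosome 1, 45374321 to 45503282) lies 24614 bases from Col3a1 and faces it on the opposite strand. It stood at 127 and 115 CPM in wild type and at 1600 and 1261 CPM in the knockout-labelled libraries, an 11.8-fold rise (log2 change 3.56 ± 0.21 SE, edgeR adjusted p = 1.61e-05). Col5a1 stood at 130 and 152 against 1030 and 685 CPM and rose 6.08-fold (edgeR adjusted p = 7.82e-05). Col5a3, the least abundant type V chain, rose 7.17-fold from 15.7 and 21.6 to 138 and 131 CPM (edgeR adjusted p = 3.62e-05). All 3 lay higher in both knockout-labelled libraries than in either wild-type library, as did 37.4% of all tested genes.

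The type XI chains, fibril formers best known from cartilage, went in opposite directions. Col11a1 (chromosome 3, 114030540 to 114220718) stood at 7.97 and 7.19 CPM in wild type and at 80.1 and 98.4 CPM in the knockout-labelled libraries. It rose 11.8-fold (log2 change 3.56 ± 0.23 SE, edgeR adjusted p = 2.01e-05). Col11a2 (chromosome 17, 34039437 to 34066685) was scarce, at 20, 36, 7 and 17 counts. Its fall of 3.20-fold (log2 change -1.68 ± 0.51 SE, edgeR adjusted p = 0.0283) passed without WT 1 but not without any 1 of the other 3 libraries. On leaving out WT 2, KO 1 or KO 2 in turn, the log2 change was -1.36, -1.29 and -2.22 (edgeR adjusted p = 0.163, 0.168 and 0.0546), and DESeq2 gave -1.72 with an adjusted p of 0.0602. Col27a1, a fibrillar chain with a shorter helix, stood at 30.2 and 16.0 against 38.0 and 43.4 CPM and did not pass (log2 change 0.83 ± 0.30 SE, edgeR adjusted p = 0.0555), though it passed without WT 1 (1.37, edgeR adjusted p = 0.00637). It also passed under a replicate block (0.88, edgeR adjusted p = 0.00388) and with no filter (0.90, edgeR adjusted p = 0.00183). Of 11 fibrillar chains, 7 rose, 1 fell, 1 did not pass and 2 were not tested, with a median log2 change of 2.60. The untested chains were Col2a1, the cartilage collagen, with 0, 0, 3 and 4 counts, and Col24a1 with 3, 2, 5 and 13.

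Fibroblast markers went in both directions in the same libraries. Of the 10 fibroblast and stellate cell markers, 4 rose and 3 fell, with a median log2 change of -0.09, beside -0.01 for all tested genes. Of all tested genes, 22.0% rose and 20.2% fell. The matrix protein gene Dcn stood at 495, 428, 620 and 330 CPM, with overlapping groups (log2 change 0.04, not past the threshold). Dpt and Fbln1 did not pass either. The receptor gene Pdgfrb rose (log2 change 1.96), as did Pdgfra, Lum and Postn (1.15, 1.33 and 2.55). Ngfr, Des and Thy1 fell (log2 change -3.53, -1.86 and -0.71). The difference between the marker list and the chains was not tested. In bulk RNA, more cells of a type and more RNA per cell cannot be told apart, and the part of the fibroblast share in the collagen rises was not tested.

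**Figure D3:**
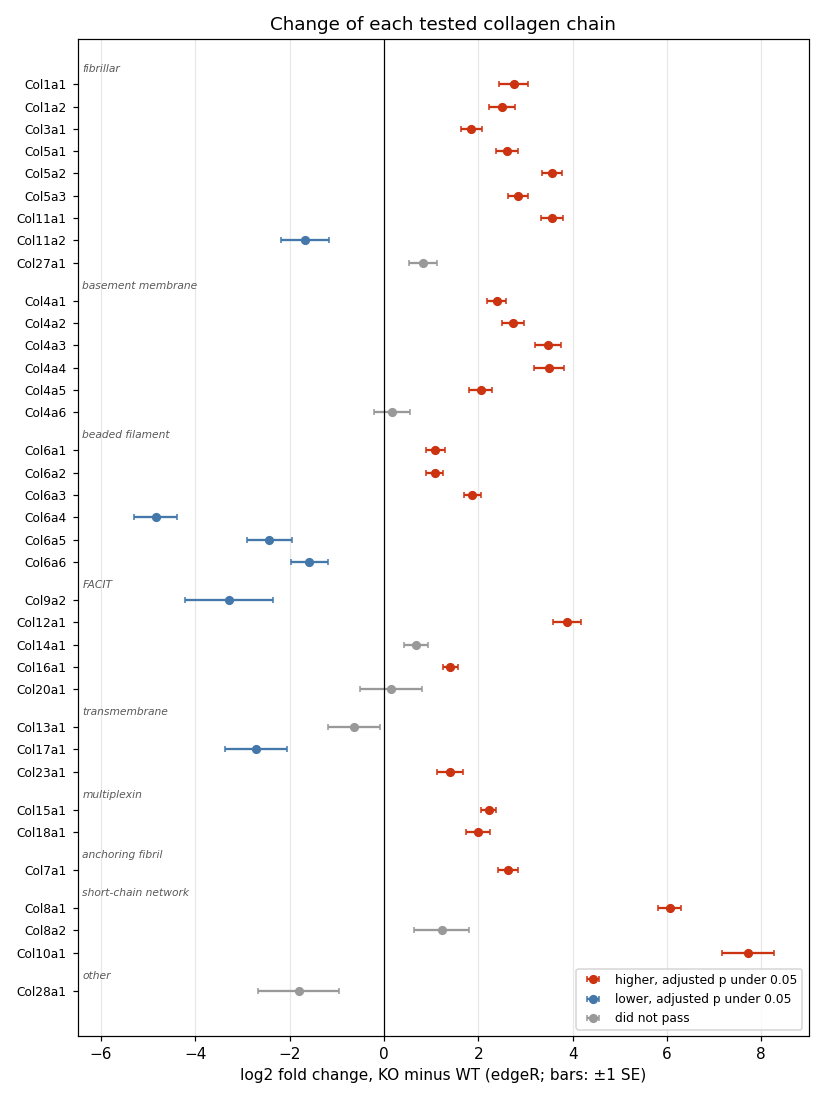
Log2 fold change of each tested chain, KO minus WT, with bars of 1 SE from the edgeR fit, coloured by whether the adjusted p was under 0.05. Col10a1 at 7.71 and Col8a1 at 6.06 lie farthest to the right and Col6a4 at -4.84 farthest to the left.

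Basement membrane chains rose in 5 of 6 cases, with a median log2 change of 2.56. The type IV genes lie in head-to-head pairs, and the pairs differed in how alike their members were. Col4a1 (chromosome 8, 11198423 to 11312826) and Col4a2 (chromosome 8, 11312805 to 11449287), the chains of the network found in nearly every basement membrane, have models that overlap by 22 bases. Col4a1 stood at 496 and 519 CPM in wild type and at 2867 and 2452 CPM in the knockout-labelled libraries, a 5.24-fold rise (log2 change 2.39 ± 0.20 SE, edgeR adjusted p = 6.50e-05). Col4a2 stood at 379.5 and 389 against 2933 and 2187 CPM, a 6.66-fold rise (log2 change 2.74 ± 0.22 SE, edgeR adjusted p = 5.44e-05). In both genes the wild-type libraries lay close together and far below the libraries labelled knockout. In the same libraries, 5 of 7 endothelial markers and all 6 lymphocyte markers were called lower. Of the duct markers, 6 of 8 were called higher, as were all 6 macrophage markers. Over all tested genes, 20.2% were called lower and 22.0% higher. Which cells carried the rises was not tested.

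Col4a3 and Col4a4 encode chains of the network known from the kidney filter, and their models are 71 bases apart on chromosome 1, on opposite strands. The stretch between them (GRCm38.p6, RefSeq, chr1:82586850-82586920, written on the minus strand, on which Col4a4 lies) is shown because both genes start from it.
Col4a4 to Col4a3: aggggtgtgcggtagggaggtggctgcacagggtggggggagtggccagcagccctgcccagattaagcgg

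Both genes were scarce in wild type. Col4a3 (82586921 to 82722059) stood at 3.57 and 5.17 CPM in wild type and at 47.5 and 51.2 CPM in the knockout-labelled libraries, an 11.1-fold rise (log2 change 3.47 ± 0.27 SE, edgeR adjusted p = 4.53e-05). Col4a4 (82448423 to 82586849) stood at 2.75 and 4.94 against 47.7 and 41.4 CPM and rose 11.3-fold (log2 change 3.50 ± 0.31 SE, edgeR adjusted p = 7.82e-05). Per kilobase of transcript, Col4a3 and Col4a4 together remained far below Col4a1 and Col4a2, at a ratio of 0.00515 and 0.00787 in wild type and 0.0116 and 0.0142 in the libraries labelled knockout.

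The X-linked pair did not move alike. Col4a5 (chromosome X, 141475385 to 141689234), which joins the chains of Col4a3 and Col4a4 in their network, stood at 20.1 and 32.1 CPM in wild type and at 103 and 114 CPM in the knockout-labelled libraries. It rose 4.13-fold (log2 change 2.05 ± 0.24 SE, edgeR adjusted p = 0.000305). Col4a6 (chromosome X, 141165403 to 141474076), whose chain forms a network with that of Col4a5, starts 1308 bases away on the other strand and stood at 7.69, 10.3, 7.45 and 12.8 CPM. Its groups overlapped and it did not pass (log2 change 0.17 ± 0.38 SE, edgeR adjusted p = 0.751). The ratio of Col4a5 to Col4a6 per kilobase was 2.65 and 3.16 in wild type and 14.1 and 9.05 in the libraries labelled knockout, where 2 libraries against 2 allow no p below 0.333. Xist, the transcript of the inactive X chromosome, had 362 counts in WT 1, 0 in WT 2, 852 in KO 1 and 838 in KO 2. The groups were thus not balanced in it, and its part in the values of this X-linked pair was not tested.

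Beaded filament chains went in both directions. Col6a1, Col6a2 and Col6a3 encode the common form of type VI collagen, which surrounds cells of most connective tissues. Col6a1 (chromosome 10, 76708792 to 76726168) stood at 309 and 281 CPM in wild type and at 730 and 524 CPM in the knockout-labelled libraries, a 2.12-fold rise (edgeR adjusted p = 0.00291). Col6a2 (chromosome 10, 76595762 to 76623630) stood at 346 and 374 against 847 and 669 CPM and rose 2.11-fold (edgeR adjusted p = 0.00203). Col6a3 (chromosome 1, 90765923 to 90843971), the large chain, stood at 150.0 and 167 against 647 and 513 CPM and rose 3.66-fold (log2 change 1.87 ± 0.18 SE, edgeR adjusted p = 0.000116). Per kilobase, the ratio of Col6a3 to Col6a1 was 0.197 and 0.240 in wild type and 0.360 and 0.397 in the libraries labelled knockout.

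Col6a4, Col6a5 and Col6a6, whose chains resemble that of Col6a3, lie side by side on chromosome 9 and all fell. Col6a4 (105989454 to 106096783) stood at 32.4 and 26.5 CPM in wild type and at 1.61 and 0.486 CPM in the knockout-labelled libraries. With 118 counts in each wild-type library and 8 and 3 in KO 1 and KO 2, it had the largest fall of all tested chains, 28.7-fold (log2 change -4.84 ± 0.46 SE, edgeR adjusted p = 0.000105). The log2 change was -5.84 without KO 1 and -4.14 without KO 2. Col6a4 passed the low-count filter only through wild type, so a difference was fixed in advance. Col6a5 (105856078 to 105960643) stood at 26.1 and 12.8 against 4.83 and 2.43 CPM and fell 5.39-fold (log2 change -2.43 ± 0.48 SE, edgeR adjusted p = 0.00431; -1.82 without WT 1). Col6a6 (105687809 to 105828160) stood at 29.1 and 32.6 against 5.84 and 14.4 CPM and fell 3.01-fold (log2 change -1.59 ± 0.39 SE, edgeR adjusted p = 0.0144). Its fall was -2.36 on the log2 scale without KO 2 and lost its call on leaving out WT 2 (-1.50, edgeR adjusted p = 0.0525). Per kilobase, these 3 chains together stood at 0.709 and 0.527 of Col6a3 in wild type and at 0.0219 and 0.0387 in the libraries labelled knockout. Which cells carry them here was not tested. In the same libraries 6 of 8 smooth muscle and pericyte, 4 of 6 Schwann cell, 5 of 7 endothelial and all 6 lymphocyte markers were called lower. So were 3 of 10 fibroblast and stellate cell markers and 1 of 8 acinar markers, but no duct, mesothelial or macrophage marker. Of all tested genes, 20.2% were called lower. The 7 tested acinar markers had log2 changes from -9.77 to -3.30, although only Bhlha15 was called, which passed the filter only through wild type. Their summed level was 151 CPM in KO 1 and 3337 CPM in KO 2. Median log2 changes were -4.95 for acinar, -4.63 for lymphocyte and -2.30 for Schwann cell markers. They were -1.61 for smooth muscle and pericyte, -0.74 for endothelial and -0.09 for fibroblast and stellate cell markers.

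**Figure D4:**
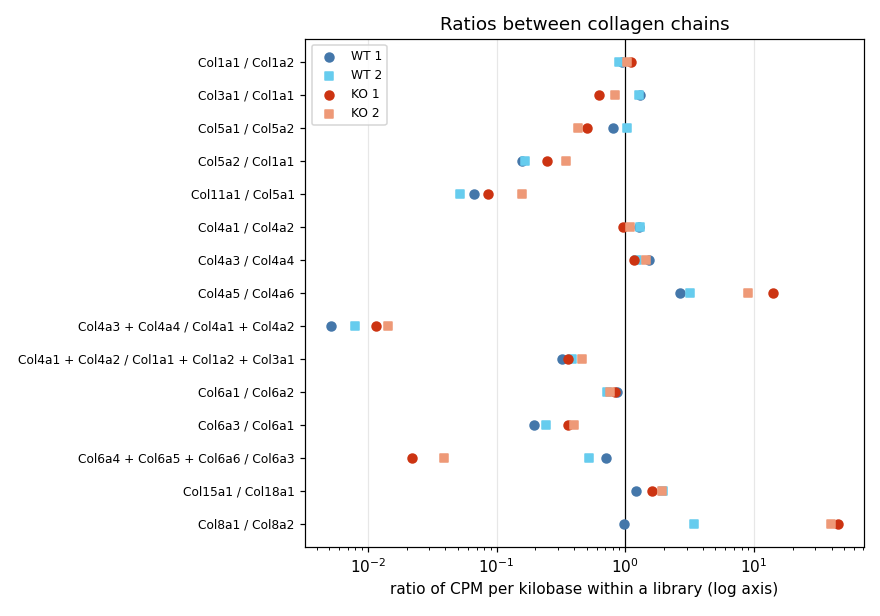
Ratios of collagen chains within a library, as CPM per kilobase of transcript on a log axis, with 1 point per library. Col1a1 to Col1a2 and Col4a1 to Col4a2 stay near 1 in all 4 libraries, while Col8a1 to Col8a2, Col4a5 to Col4a6 and the sum of Col6a4, Col6a5 and Col6a6 to Col6a3 separate the groups widely.

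Ratios within a library compare partner chains. Those of Col4a3 to Col4a4 (1.54, 1.24, 1.18 and 1.46) and of Col6a1 to Col6a2 (0.862, 0.725, 0.830 and 0.755) overlapped between the groups. Per kilobase, Col1a1 stood at 0.936 and 0.889 of Col1a2 in wild type and at 1.11 and 1.03 in KO 1 and KO 2. Col4a1 stood at 1.27 and 1.30 of Col4a2 in wild type and at 0.953 and 1.09 in the libraries labelled knockout. Both ratios separated the groups, the first higher and the second lower with the knockout label, within a range of 0.889 to 1.30. Col3a1, by contrast, went from 1.30 and 1.29 of Col1a1 to 0.619 and 0.834, and Col5a1 from 0.807 and 1.04 of Col5a2 to 0.507 and 0.428. Col5a2 went from 0.157 and 0.166 of Col1a1 to 0.248 and 0.346. The ratio of Col4a1 and Col4a2 together to Col1a1, Col1a2 and Col3a1 together overlapped between the groups, at 0.325 and 0.387 in wild type and 0.361 and 0.460 in the libraries labelled knockout.

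Col10a1 and Col8a1, of the short-chain network formers, showed the largest rises among the tested chains, while Col8a2 did not pass. Col10a1 (chromosome 10, 34389981 to 34397085), known as the collagen of hypertrophic growth plate cartilage, had 7 counts in WT 1 and 1 in WT 2, against 1257 in KO 1 and 1098 in KO 2. In CPM these were 1.92 and 0.225 against 253 and 178. The rise was 209.8-fold (log2 change 7.71 ± 0.56 SE, edgeR adjusted p = 0.000266), and the log2 change was 9.77 without WT 1 and 6.79 without WT 2. Col10a1 passed the low-count filter only through the libraries labelled knockout, so a difference was fixed in advance and its p-value adds no support. The whole Col10a1 model lies inside Nt5dc1 on the opposite strand, and Nt5dc1 had 74, 83, 62 and 72 counts. Nt5dc1 itself did not pass (log2 change -0.69 ± 0.26 SE, edgeR adjusted p = 0.0637).

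Col8a1 (chromosome 16, 57624258 to 57754737), a chain of the hexagonal lattice under corneal endothelium and of vessel walls, stood at 6.32 and 5.39 CPM in wild type and at 449 and 331 CPM in the knockout-labelled libraries. It rose 66.5-fold (log2 change 6.06 ± 0.25 SE, edgeR adjusted p = 1.18e-05). Col8a2, the other type VIII chain, stood at 5.50 and 1.35 against 8.45 and 7.12 CPM and did not pass (log2 change 1.22 ± 0.58 SE, edgeR adjusted p = 0.125). It passed without WT 1 (2.52, edgeR adjusted p = 0.0118), under a replicate block (1.36, edgeR adjusted p = 0.0266) and with no filter (1.28, edgeR adjusted p = 0.0497). Per kilobase, Col8a1 stood at 0.975 and 3.39 times Col8a2 in wild type and at 45.0 and 39.4 times in the libraries labelled knockout.

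Upstream sequence was examined because chains rose and fell together. RefSeq start sites (GRCm38.p6) were found for 35 of the 44 genes, and the 250 bases before each start were searched. The TEAD motif, GGAATG on either strand, marks sites of the DNA-binding partners of YAP and TAZ. It occurred in the windows of 4 of the 35 genes (Col3a1, Col6a2, Col18a1 and Col20a1), against 14.4% of all 27025 genes. The AP-1 motif TGANTCA, which reads alike on both strands, occurred in 1 of the 35 (Col6a1), against 7.82% of all genes. TATAAA on the strand of the gene occurred in 5 of the 35 (Col3a1, Col10a1, Col11a2, Col13a1 and Col17a1), against 8.94%. A match in letters describes the sequence and shows no binding. The stretches before the start of 4 genes are printed: the chains with the largest rises (Col10a1, Col8a1), a fibrillar chain with a TEAD motif (Col3a1) and a chain of the cluster that fell (Col6a5). None contains an annotated GENCODE M21 exon. Capitals mark TATAAA in Col10a1 and the TEAD motif in Col3a1, whose stretch also holds TATAAA, in lower case.
Col10a1, chr10:34389861-34389980, plus strand: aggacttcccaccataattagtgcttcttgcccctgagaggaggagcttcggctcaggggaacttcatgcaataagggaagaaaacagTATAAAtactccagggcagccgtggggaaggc
Col8a1, chr16:57754738-57754857, minus strand: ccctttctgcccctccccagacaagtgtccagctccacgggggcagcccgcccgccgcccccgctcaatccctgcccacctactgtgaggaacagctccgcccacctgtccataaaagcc
Col3a1, chr1:45311358-45311537, plus strand: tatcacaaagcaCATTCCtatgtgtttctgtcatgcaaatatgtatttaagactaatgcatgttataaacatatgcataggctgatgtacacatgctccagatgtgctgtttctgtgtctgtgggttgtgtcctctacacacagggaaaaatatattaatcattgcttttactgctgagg
Col6a5, chr9:105960644-105960763, minus strand: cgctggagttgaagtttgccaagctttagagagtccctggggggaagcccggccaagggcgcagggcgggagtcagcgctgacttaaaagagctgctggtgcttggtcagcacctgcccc

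FACIT chains were mixed, and 4 of the 9 were too scarce to test. Col12a1 (chromosome 9, 79598991 to 79718831), which binds type I fibrils in tissues under tension, stood at 69.3 and 40.5 CPM in wild type and at 918 and 699 CPM in the knockout-labelled libraries. It rose 14.8-fold (log2 change 3.88 ± 0.30 SE, edgeR adjusted p = 0.000101). Col16a1 stood at 59.9 and 65.2 against 175 and 157 CPM and rose 2.65-fold (edgeR adjusted p = 0.000305). Col14a1, a close relative of Col12a1, stood at 147 and 125 against 273 and 162 CPM and did not pass (log2 change 0.68 ± 0.25 SE, edgeR adjusted p = 0.0653). It passed without KO 2 (1.04, edgeR adjusted p = 0.00456), with scaling by library totals only (0.70, edgeR adjusted p = 0.0412), with no filter (0.75, edgeR adjusted p = 0.00023) and under a replicate block (0.64, edgeR adjusted p = 0.00326). Col9a2, a cartilage chain, had 19, 10, 0 and 4 counts and passed the low-count filter only through wild type, which fixed a difference in advance. Its fall (log2 change -3.29 ± 0.94 SE, edgeR adjusted p = 0.0218) did not pass without KO 1 (-2.47, edgeR adjusted p = 0.134), and without KO 2 the value was -7.01. Col20a1 stood at 3, 13, 10 and 14 counts and did not pass (log2 change 0.15 ± 0.67 SE, edgeR adjusted p = 0.878). It overlaps the model 9230112E08Rik on the same strand, which had 3, 16, 13 and 22 counts, so its reads are uncertain. Col9a1 had 0 counts in every library, which allows up to 0.824, 0.674, 0.604 and 0.486 CPM  (3 counts). The other untested FACIT chains, Col9a3, Col19a1 and Col22a1, had at most 14 counts in a library.

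Among transmembrane chains 1 rose, 1 fell, 1 did not pass and 1 was not tested. Col23a1 stood at 7.97 and 8.54 CPM in wild type and at 21.9 and 21.5 CPM in the knockout-labelled libraries, a 2.62-fold rise (log2 change 1.39 ± 0.27 SE, edgeR adjusted p = 0.00412). Col17a1 (chromosome 19, 47646344 to 47692094), a component of hemidesmosomes, which fasten epithelial cells to the basement membrane, was scarce, with 10, 20, 2 and 4 counts. It passed the low-count filter only through wild type, so a difference was fixed in advance. Its fall (log2 change -2.71 ± 0.66 SE, edgeR adjusted p = 0.0113) lost its call, but not its size, on leaving out WT 2, KO 1 or KO 2 in turn (log2 change -2.30, -2.44 and -3.06, edgeR adjusted p = 0.122, 0.117 and 0.0841). Col13a1 had 12, 49, 25 and 27 counts and did not pass (log2 change -0.63 ± 0.55 SE, edgeR adjusted p = 0.387). Its wild-type libraries lay on either side of both others. Col25a1 had 2, 4, 0 and 1 counts and was not tested.

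The anchoring fibril chain and the multiplexins, which link or lie against basement membranes, rose. Col7a1 (chromosome 9, 108953586 to 108984875), which ties the basement membrane of stratified epithelia to the tissue beneath, stood at 14.3 and 14.2 CPM in wild type and at 77.1 and 99.4 CPM in the knockout-labelled libraries. It rose 6.20-fold (log2 change 2.63 ± 0.22 SE, edgeR adjusted p = 5.62e-05). Col15a1 (chromosome 4, 47208161 to 47313167) stood at 146 and 149 against 716 and 658 CPM and rose 4.64-fold (edgeR adjusted p = 3.63e-05). Col18a1 (chromosome 10, 77052178 to 77166548), the source of the fragment endostatin, stood at 131 and 82.5 against 483 and 369.7 CPM and rose (log2 change 2.00 ± 0.25 SE, edgeR adjusted p = 0.000665). It overlaps Slc19a1 on the opposite strand, which had 35, 46, 48 and 50 counts.

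Of the chains of other structure, Col28a1, known from the sheaths of peripheral nerve, had 73 counts in WT 1 and 15 in WT 2, against 19 and 17 in KO 1 and KO 2. It did not pass (log2 change -1.81 ± 0.86 SE, edgeR adjusted p = 0.151), and its log2 change was -0.03 without WT 1. It passed without WT 2 (-2.61, edgeR adjusted p = 0.00127), with no filter (-1.75, edgeR adjusted p = 0.00128) and under a replicate block (-1.48, edgeR adjusted p = 0.0115). The Schwann cell gene Sox10 also stood out in WT 1, with 62 counts against 19, 4 and 12 in WT 2, KO 1 and KO 2, and the part of nerve tissue in these values was not tested. Col26a1 had 6 counts in WT 2 and 0 in the other libraries and was not tested.

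Of the tested genes that make, bind or cut collagen, most rose and none was called lower by edgeR. Of 28 genes of collagen synthesis and maturation, 26 were tested, and 18 rose and 0 fell, with a median log2 change of 1.23, where 22.0% of all tested genes rose and 20.2% fell. With upper quartile scaling 15 rose, and 15 to 18 when a library was left out. At an unadjusted p under 0.05 edgeR had 0 lower, and DESeq2 called 0 lower. Among the 18, P4ha3 passed the low-count filter only through the libraries labelled knockout, so a difference was fixed in advance. P4ha3, a catalytic subunit of prolyl 4-hydroxylase, which stabilises the collagen helix, stood at 1.65 and 1.57 CPM in wild type and at 46.3 and 31.9 CPM in the knockout-labelled libraries (log2 change 4.58 ± 0.36 SE, edgeR adjusted p = 4.53e-05). Bmp1, the proteinase that removes the C-terminal propeptide of fibrillar procollagens, stood at 22.5 and 19.8 against 404 and 410.0 CPM (log2 change 4.27 ± 0.18 SE, edgeR adjusted p = 1.18e-05). Adamts2, which removes the N-terminal propeptide, stood at 57.4 and 44.5 against 391 and 234 CPM (log2 change 2.62 ± 0.28 SE, edgeR adjusted p = 0.000418). Bmp1 and Adamts2 were thus higher where the fibrillar chains were higher. Of the related proteinase genes in the list, Adamts14 and Tll1 did not pass, and Adamts3 and Tll2 were too scarce to test.

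Of 12 collagen receptor genes, 10 were tested, and 8 rose and 0 fell (edgeR; 0 at an unadjusted p under 0.05, 0 with DESeq2), with a median log2 change of 1.87. The shares over all tested genes were again 22.0% and 20.2%. Among the 8, Itga10 passed the low-count filter only through the libraries labelled knockout, so a difference was fixed in advance. Mrc2, an endocytic receptor that takes up collagen fragments, stood at 21.7 and 21.4 CPM in wild type and at 230.2 and 180.3 CPM in the knockout-labelled libraries (log2 change 3.25 ± 0.20 SE, edgeR adjusted p = 1.63e-05). Itga2, the alpha subunit of an epithelial collagen receptor, stood at 26.4 and 17.5 against 101 and 122 CPM (edgeR adjusted p = 0.00014). Itgb1, the beta subunit shared by the collagen-binding integrins, stood at 422 and 366 against 1692 and 1608 CPM (edgeR adjusted p = 9.15e-05). Of 10 genes of collagen breakdown, 8 were tested, and 7 rose and 0 fell by edgeR. At an unadjusted p under 0.05, 0 fell, and DESeq2 called 0 lower. Among the 7 rises, those of Mmp13 and Mmp8 were fixed in advance, as both passed the low-count filter only through the libraries labelled knockout. The collagenase gene Mmp13 had 0 counts in wild type and 46.1 and 25.1 CPM in the knockout-labelled libraries, at least 95.9-fold higher against a floor of 3 counts over the wild-type group. Mmp2, a gelatinase, stood at 109 and 80.9 against 914 and 974 CPM (edgeR adjusted p = 1.72e-05). Ctsk, a collagen-degrading cathepsin, stood at 12.4 and 9.21 against 67.2 and 116 CPM (edgeR adjusted p = 0.000219). The receptor and breakdown lists together had 15 rises, and 12 to 14 when a library was left out. Macrophages also make several of these proteins, and all 6 macrophage markers rose in the same libraries, against 22.0% of all tested genes. The part of macrophages in the rises was not tested.

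**Figure D5:**
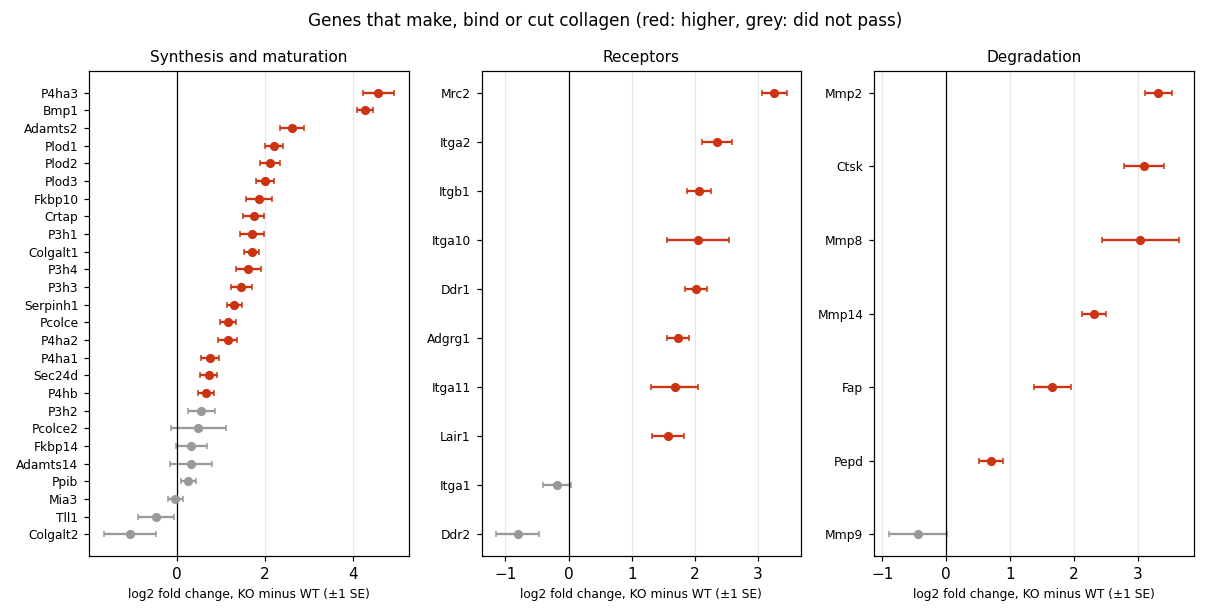
Log2 fold change, KO minus WT, with bars of 1 SE from the edgeR fit, for tested genes of collagen synthesis and maturation, receptors and degradation. P4ha3 at 4.58 and Bmp1 at 4.27 lie farthest to the right among the maturation genes, and Mmp13 is left out because it had 0 counts in wild type.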

How the data were processed

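Each library has 1 deposited file of whole-number counts for 52535 gene models, with no normalization. The submitters' processing notes name mm10, TopHat and edgeR without versions; how the authors counted, with which annotation and strand setting, is not stated in the labels. The kit was a stranded one, per the labels' protocols. Model starts are counted from 0 in the files and printed from 1; 43 of the 44 collagen models equal GENCODE M21 (Col20a1 does not).

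Low genes were removed by filterByExpr, and 13990 genes entered edgeR 4.0.16 in R 4.3.3 (TMM; robust glmQLFit and glmQLFTest; genotype as the only term; 4 libraries; 2 residual degrees of freedom), with Benjamini-Hochberg adjustment over all of them and a threshold of 0.05. SE is the size of the log2 change divided by the square root of F. Levels per kilobase use the transcript with the longest coding sequence. Libraries of a group differed beyond sampling noise (chi-square per degree of freedom 20.1 and 19.98). The fit was also run on simulated data with the same dispersion for every gene, which these libraries need not share, so that run lends the p-values no support. Of the 36 tested chains, 29 had at least 10 counts in every library. A gene that passed the filter only through its higher group had to differ, so its call is no support. Among the genes named, this holds for Col10a1, Col6a4, Col9a2, Col17a1, P4ha3 and Mmp13.

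The lists of collagen maturation, receptor and breakdown genes and of cell markers were written by hand. Members and lists were chosen with earlier results of these data known. Named with values were the tested chains and, from each list of collagen-related genes, the 3 largest rises past the threshold (there was no fall). Genes of overlapping models and single markers named with values were chosen after their values were seen. Alternatives were other scalings, no filter, DESeq2 1.42.0, a replicate block and leaving out each library.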

Additional observations from a re-analysis of the deposited data

How the results depend on the processing

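All 23 rises of collagen chains kept their call under each alternative that was run, and 23 to 26 chains were called higher. Of chains called lower there were 6, 5 with DESeq2, 7 with no filter, and 3 to 5 when a library was left out. The replicate block gave 26 higher and 7 lower. Deviations of same-numbered libraries correlated at 0.0355. With 2 libraries a group this is a single value, and it cannot show whether the numbers mark pairs. Over all genes, 1867 to 2276 were called lower when a library was left out, against 2832. Of receptor and breakdown genes, 0 were called lower, but 1 (Ddr2) with no filter, 1 with the replicate block and 0 to 1 when a library was left out. The median log2 change of all genes was -0.20 with upper quartile scaling and -0.11 with no filter. Directions turned for genes that did not pass. With upper quartile scaling Col20a1 was at -0.047 and Col4a6 at -0.031. Mia3 was at 0.0024 with library totals only and 0.043 with no filter. When a library was left out, Col20a1 lay between -0.43 and 1.36, Col4a6 between -0.24 and 0.50, Col13a1 between -1.21 and 0.51, Itga1 between -0.54 and 0.14, Pcolce2 between -0.36 and 1.09 and Mia3 between -0.13 and 0.095. Col9a2 gave no value without WT 1. A lone library is taken to vary like the other group. Low counts limit the falls of Col9a2, Col11a2 and Col17a1, none of which had over 36 counts in a library.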
